A study of Homo sapiens with 12 samples.

Results

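The genes described here are 45 chemokines, cytokines, their receptors and genes of the NF-kappaB pathway, followed in 2 prostate cancer cell lines and in docetaxel-resistant cells derived from each. They were chosen by gene symbol in the array annotation. Of the 45, 42 had at least 1 probe set of their own among the 11939 genes of the smaller array type, and 43 among the 19740 genes of the larger one. A filter on low values left 36 of them among the 9713 genes tested. CXCL10, CXCL11, CCL2, IL1A, VCAM1 and PTGS2 were too dim in every group to be tested, CXCL16 was measured on the larger array type only, and CSF2 and SAA1 had no probe set of their own symbol and were not analysed here.

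Chemokines are small secreted proteins that attract leukocytes through G protein-coupled receptors, and the CXC ligands next to one another on chromosome 4 are best known for attracting neutrophils. Many of these genes, together with adhesion molecules and acute phase proteins, are transcribed when NF-kappaB dimers are released from their inhibitory IkappaB proteins and enter the nucleus. In prostate cancer cells DU145 is known for constitutive NF-kappaB activity and for secreting IL6, while 22Rv1 is a line that expresses the androgen receptor.

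DU145 and 22Rv1 are established human prostate cancer lines. The study set docetaxel-sensitive parental cells, kept in RPMI medium with fetal bovine serum and without the drug, against the selected resistant cells DU145-DR and 22Rv1-DR, kept under docetaxel, a taxane that stabilises microtubules. Each of the 4 groups had 3 arrays of total RNA, 2 on the smaller array type and 1 on the larger. Resistance and the presence of the drug cannot be told apart in either comparison, and the labels do not say from how many selections or clones each resistant line came. Nor do they say whether replicates were separate cultures, so the p-values stand for spread among arrays that may be technical only.

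Values are normalised probe-set intensities on a linear scale. A change is the resistant minus the parental mean of log2(intensity + 16) over replicates 1 and 2, with its standard error (SE) from limma and a p-value adjusted over the 9713 genes; a gene is said to have risen or fallen where the adjusted p was under 0.05. Replicate 3 of each group gave 1 resistant minus parental difference per line on the same scale, called the third pair, with no test. A blocked p-value is that of the fit in which arrays of the same line and replicate number share a term. Because the added 16 compresses low values, changes of dim genes are understated.

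The labels were checked with ABCB1, the drug efflux pump, whose intensity was 78.8 and 68.1 on the DU145 arrays against 6165 and 1618 in DU145-DR, and 15.6 and 12.8 on the 22Rv1 arrays against 3984 and 3259 in 22Rv1-DR. The 25th percentile of the smaller arrays lay between 62.2 and 76.1 in DU145 and DU145-DR but between 19.6 and 20.4 in 22Rv1 and 22Rv1-DR, so levels there were not compared between the lines, nor between the array types. Of 12 leukocyte markers measured, 0 lay above the array median on both smaller arrays in DU145, 22Rv1 and 22Rv1-DR and 1 in DU145-DR. Their summed intensity was 1036 to 1439 in DU145 and 1096 to 1365 in DU145-DR, and 246 to 265 and 254 to 258 in 22Rv1 and 22Rv1-DR. PTPRC, which defines leukocytes, was at 41.6 and 54.6 in DU145 and 40.8 and 56.9 in DU145-DR, below the 25th percentile of those arrays. Of 9 epithelial and prostate markers tested, 5 fell in DU145-DR and 2 in 22Rv1-DR, where 11% and 5.56% of all genes tested changed. CDH1, the epithelial cadherin, fell by 5.74 in DU145-DR, and EPCAM, an epithelial adhesion molecule, fell by 2.36 there. The part of this shift in the results below was not tested. In such bulk RNA, fewer cells of a type and less RNA per cell cannot be told apart.

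In DU145-DR cells 10 of the 36 tested genes changed, 4 up and 6 down (27.8%), where 11% of all genes tested did. LCN2, ICAM1, CXCL6, IL18, TNFAIP2 and TNFAIP3 fell, and PTX3, CXCR4, CXCL8 and CXCL3 rose. The 11% is also the share to set beside the counts by kind of gene below, as 5.56% is in 22Rv1-DR. The median change of the 36 was 0.10, against -0.01 over all genes. A gene that passed the low-value filter through 1 group had to differ between groups, so these counts describe the tested genes and not all 45. Among genes that rose or fell in either line, this holds for CXCL6, through DU145, and IL13RA2, through 22Rv1-DR. With the replicate block 22 of the 36 passed (12 up, 10 down, 61.1%), where 35.5% of all genes did, and the 12 genes added were CXCL1, CXCL5, CXCL14, IL11, IL24, IL4R, IL13RA2, LIF, CSF1, NFKB1, RELA and RELB. Of these 12, 8 also passed in a fit of all 12 arrays with array type as a block (CXCL14, IL11, IL24, IL4R, IL13RA2, CSF1, RELA and RELB). On the third pair 8 of the 10 changed genes had the sign of their change, the exceptions being CXCL8 and CXCR4. Of all 36 tested genes 27 (75%) kept their sign there, and the share over all genes was not counted. When each of the 8 arrays was left out in turn, 5 of the 10 passed every time: CXCL6, CXCL8, CXCR4, ICAM1 and LCN2.

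**Figure D1:**
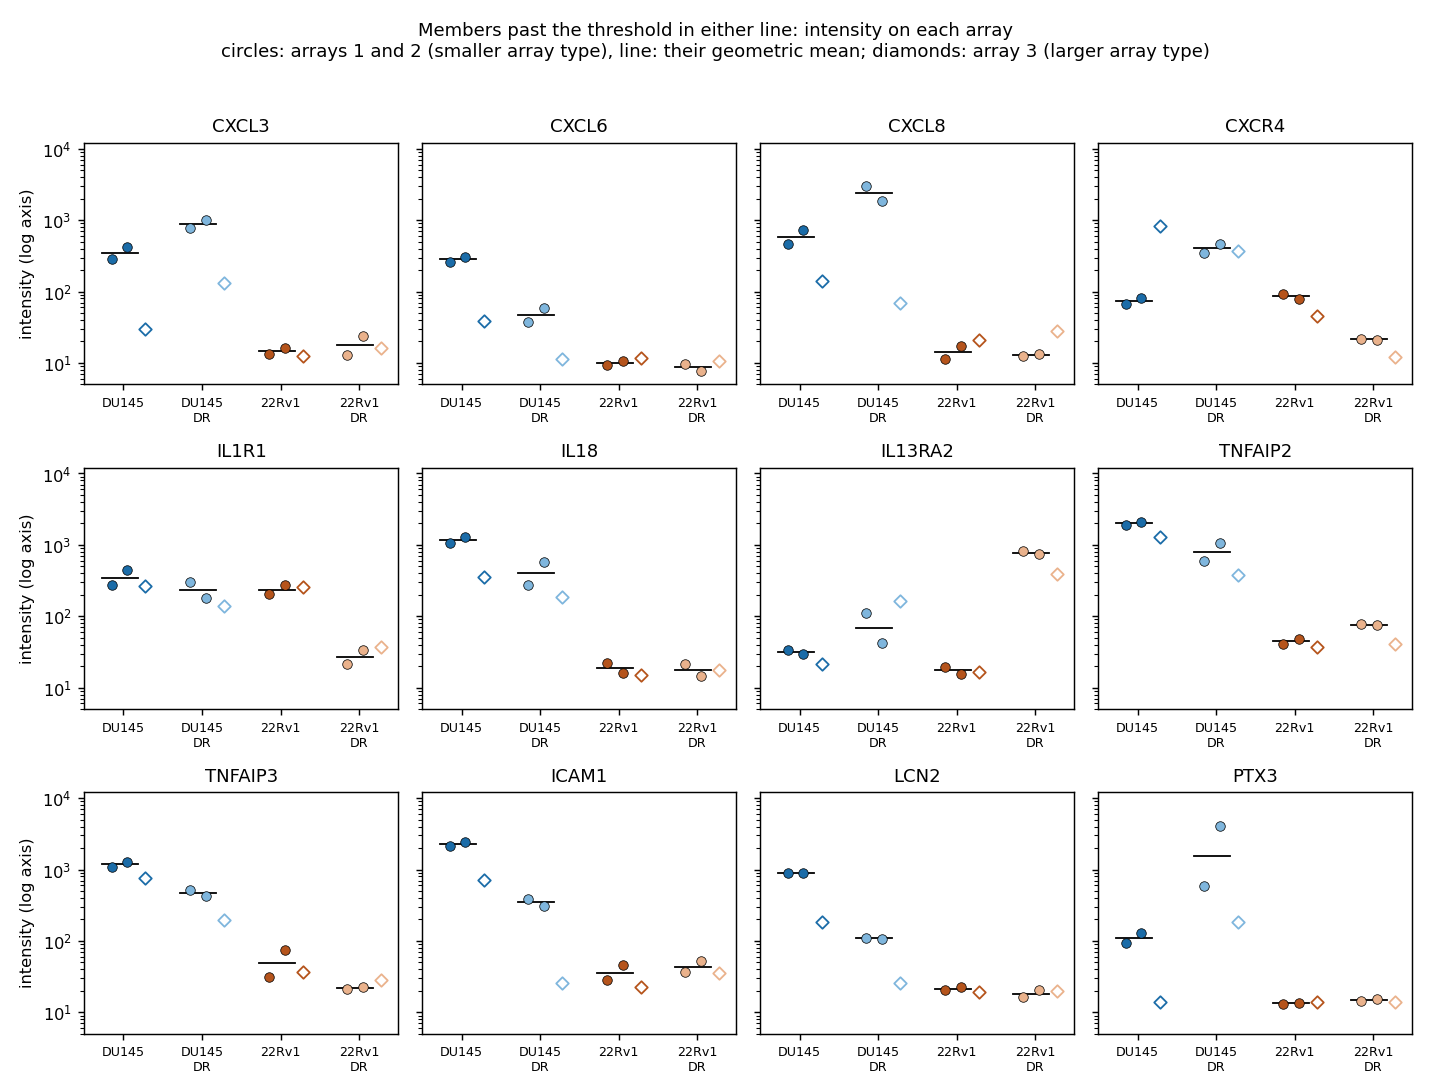
Intensity (log scale) of the members that passed the test in either line, on each array of the 4 groups, with circles for replicates 1 and 2, a line at their geometric mean and diamonds for the third arrays, on the larger array type. In DU145-DR the LCN2 points at 110 and 106 lie far below the DU145 points at 898 and 891, and in 22Rv1-DR the IL13RA2 points at 820 and 744 lie far above the 22Rv1 points at 19.7 and 15.6.

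The promoters of 6 genes called in DU145-DR are shown, with rises and falls among them: CXCL3 and CXCL6 because they moved in opposite directions and share a kappaB match of the same letters, TNFAIP3, LCN2 and PTX3 because their matches have other letters, and CXCL8 because it had no match to the full consensus searched. The sequences are the 200 bases before the RefSeq start site, assembly GRCh38.p14, written in the direction of transcription, and capitals mark matches to the kappaB consensus bound by NF-kappaB and to the AP-1 motif TGANTCA. CXCL3 lies at chr4:74038690-74038889 on the minus strand and CXCL6 at chr4:73836478-73836677 on the plus strand. The others, on the plus strand, are CXCL8 at chr4:73740369-73740568, TNFAIP3 at chr6:137867059-137867258, LCN2 at chr9:128149253-128149452 and PTX3 at chr3:157436650-157436849.
CXCL3: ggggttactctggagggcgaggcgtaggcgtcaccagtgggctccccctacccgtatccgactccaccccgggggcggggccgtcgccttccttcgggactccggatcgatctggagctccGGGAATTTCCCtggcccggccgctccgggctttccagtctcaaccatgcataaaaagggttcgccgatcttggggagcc
CXCL6: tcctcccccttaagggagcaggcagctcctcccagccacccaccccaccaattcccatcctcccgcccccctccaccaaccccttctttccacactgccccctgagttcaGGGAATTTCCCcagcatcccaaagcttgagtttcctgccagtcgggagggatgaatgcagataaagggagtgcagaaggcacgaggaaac
CXCL8: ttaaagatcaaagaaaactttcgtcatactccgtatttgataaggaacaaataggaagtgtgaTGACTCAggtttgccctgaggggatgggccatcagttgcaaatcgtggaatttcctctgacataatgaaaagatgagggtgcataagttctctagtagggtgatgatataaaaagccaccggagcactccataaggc
TNFAIP3: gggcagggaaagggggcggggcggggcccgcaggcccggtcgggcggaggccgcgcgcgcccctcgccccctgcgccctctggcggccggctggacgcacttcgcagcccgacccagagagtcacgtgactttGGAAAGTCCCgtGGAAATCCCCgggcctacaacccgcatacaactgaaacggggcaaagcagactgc
LCN2: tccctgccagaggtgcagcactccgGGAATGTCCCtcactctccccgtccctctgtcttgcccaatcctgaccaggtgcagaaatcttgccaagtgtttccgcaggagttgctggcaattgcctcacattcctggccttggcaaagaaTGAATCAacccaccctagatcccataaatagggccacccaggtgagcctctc
PTX3: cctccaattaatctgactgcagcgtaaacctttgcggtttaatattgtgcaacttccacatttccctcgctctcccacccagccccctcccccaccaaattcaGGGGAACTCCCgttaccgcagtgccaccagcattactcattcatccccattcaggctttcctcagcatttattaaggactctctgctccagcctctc

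Both strands were searched, and positions count from the start site. The kappaB consensus was GGG, a purine, any 2 bases, 2 pyrimidines and CC. CXCL3 held the letters GGGAATTTCC at -79 and CXCL6 held the same letters at -90. CXCL1 held them at -79, CXCL2 at -78 and CXCL5 at -91, so these 5 neighbouring ligand genes carry the same 10 letters. TNFAIP3 had 2 kappaB matches, the farther one at -67, LCN2 had one at -175 with an AP-1 match at -52, and PTX3 had overlapping matches from -97 on. CXCL8 had an AP-1 match at -137 and a TATA box at -31 and no kappaB match to this consensus, nor did the windows of ICAM1, CXCR4, IL1R1 or TNFAIP2. The CXCL8 window holds GGAATTTCC and the ICAM1 window GGAAATTCC, each preceded by T, so both miss the consensus only at its first letter. Lack of a match is therefore not lack of a kappaB site. Windows of 300 bases (250 before and 50 after the start) were held for 35 of the 45 genes, 46 windows in all. Of these, 21 (45.7%) held a kappaB match, against 11.3% of 35116 windows of all genes. AP-1 matches were in 15.2% and 7.71%, and the TATA box, searched as TATAAA, in 23.9% and 11.5%. The genes were listed for their part in chemokine, cytokine and NF-kappaB biology, so the kappaB share is no test. Some genes have several windows and the 5 neighbouring ligands share their letters, so the windows are not independent. A match is a description of letters and not of binding.

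Among the CXC ligands, which attract neutrophils (CXCL1 to CXCL8) or lymphocytes and other cells (CXCL10 to CXCL16), 8 were tested; 2 rose, 1 fell and 5 did not pass in DU145-DR. CXCL6, a ligand of CXCR1 and CXCR2, had intensities of 263, 309 and 38.6 on DU145 arrays 1, 2 and 3 and 37.8, 59.3 and 11.2 on the DU145-DR arrays. Every resistant array was below its parental counterpart on the same array type. CXCL6 passed the low-value filter through DU145 only, so its p-value is no separate support. CXCL6 fell by 2.24 ± 0.21 (SE, 2 arrays per group, adjusted p = 0.000455), with -1.01 on the third pair, and each resistant value was under its array's 25th percentile, so the fall is possibly a lower bound. CXCL3, a paralog that acts through CXCR2, moved the other way: 288, 416 and 29.7 in DU145 against 776, 1010 and 133 in DU145-DR. Both resistant arrays of the smaller type lay above both parental ones, and CXCL3 rose by 1.31 ± 0.26 (adjusted p = 0.014), with 1.71 on the third pair. Its call was lost with only the 4 DU145 arrays (adjusted p = 0.073) and without DU145 replicate 1 (0.0893), but in a fit of all 12 arrays it gave 1.45 (0.00071).

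CXCL8, or interleukin 8, is the best-known neutrophil chemokine, and its probe sets disagreed. The probe set not marked as cross-hybridising read 465, 719 and 142 in DU145 and 3061, 1846 and 69.1 in DU145-DR. The resistant arrays were the higher ones on the smaller type and the lower one on the larger type. The rise was 2.01 ± 0.29 (adjusted p = 0.00417), with -0.89 on the third pair, and did not pass in the 12-array fit (1.04, adjusted p = 0.149). The second probe set, of the kind so marked, read 1144, 1333 and 588 in DU145 and 781, 1184 and 1448 in DU145-DR. It gave -0.35 ± 0.25 (adjusted p = 0.5) on the smaller arrays and 1.28 on the larger ones, both opposite in sign to the first probe set. The direction of CXCL8 in DU145-DR therefore depended on the probe set and on the array type.

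The other neutrophil-attracting ligands did not pass without the block. CXCL1 read 885, 1184 and 130 in DU145 and 452, 809 and 131 in DU145-DR, a change of -0.74 ± 0.30 (adjusted p = 0.169, blocked 0.00902) with 0.01 on the third pair. CXCL2, read by a probe set that can bind several transcripts, gave 1734, 2257 and 648 against 1269, 2684 and 734, with overlapping groups and -0.10 ± 0.33 (adjusted p = 0.962). CXCL5 gave 79.9 and 76.1 against 56.9 and 53.1 (-0.41 ± 0.19, adjusted p = 0.237, blocked 0.0219). A brighter CXCL5 probe set, marked as cross-hybridising, read 171, 352 and 30.3 in DU145 and 59.3, 42.8 and 10.9 in DU145-DR. It passed when every probe set was tested on its own (-1.98 ± 0.31, adjusted p = 0.00676). Among the remaining ligands, CXCL14, an epithelial chemokine, read 54.2, 45.6 and 14.4 in DU145 and 96.3, 80.4 and 40.2 in DU145-DR, higher in every resistant array (0.66 ± 0.18, adjusted p = 0.0546, blocked 0.0043, with 0.89 on the third pair). CXCL12, the ligand of CXCR4, was near the floor, at 105, 58.1 and 18.4 against 92.4, 56.5 and 16.6 (-0.10 ± 0.28, adjusted p = 0.951). CXCL10 and CXCL11, which interferon induces, stayed at or below 88.6 on every array. CXCL16, a transmembrane chemokine, read 172 in DU145 and 97 in DU145-DR, and 286 and 211 in 22Rv1 and 22Rv1-DR, on the third arrays.

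Of the 2 CC ligands tested with limma, 0 passed in DU145-DR, in 22Rv1-DR or in the difference between the lines, and 0 had an unadjusted p under 0.05 in any of these. CCL20, which attracts cells with CCR6, read 1031 and 1418 in DU145 and 855 and 1846 in DU145-DR on the smaller arrays, with overlapping groups (0.06 ± 0.35, adjusted p = 0.988), yet 15 and 22.5 on the third arrays. CCL5 gave 119, 154 and 37.5 against 123, 302 and 19.6 (0.47 ± 0.35, adjusted p = 0.504, with -0.59 on the third pair). CCL2, a monocyte attractant, was dim, at 56.5, 37.5 and 18.6 against 88.6, 39.9 and 13.5.

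Of the 7 cytokines tested, 1 fell and 6 did not pass in DU145-DR. IL18, which is made as an inactive precursor and cleaved by caspase 1, read 1067, 1305 and 360 in DU145 and 276, 572 and 185 in DU145-DR. Resistant arrays were lower on both array types, and IL18 fell by 1.53 ± 0.32 (adjusted p = 0.0189), with -0.90 on the third pair. IL18 no longer passed without DU145 replicate 1 (adjusted p = 0.073) or 2 (0.114), or with only the 4 DU145 arrays (0.087).

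IL11, a cytokine that signals through gp130, had widely spaced replicates in DU145-DR: 338, 280 and 317 in DU145 and 2916, 605 and 2916 in DU145-DR. Both smaller resistant arrays lay above both parental ones, but they differed widely, and the change of 2.06 ± 0.57 did not pass without the block (adjusted p = 0.0556, blocked 0.0195, with 3.14 on the third pair). A second IL11 probe set gave 0.48 ± 0.41 (adjusted p = 0.618), with 1.39 on the third pair. IL6, also a gp130 cytokine, read 644 and 910 against 750 and 488, with overlapping groups (-0.33 ± 0.27, adjusted p = 0.569), while the third arrays read 826 and 57.3, a difference of -3.52. LIF, the third gp130 cytokine here, gave 461, 549 and 360 against 622, 690 and 491 (0.37 ± 0.19, adjusted p = 0.299, blocked 0.0309).

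CSF1, the growth factor of macrophages, read 553, 709 and 443 in DU145 and 269, 419 and 67.2 in DU145-DR, lower in all 3 resistant arrays (-0.87 ± 0.30, adjusted p = 0.108, blocked 0.00359, with -2.46 on the third pair). The other 3 CSF1 probe sets gave -0.14 ± 0.30, 0.01 ± 0.20 and 0.16 ± 0.18, with -0.29, -0.11 and -0.12 on the third pair. IL24, a cytokine of the IL10 family, read 212, 249 and 191 against 131, 163 and 105 (-0.60 ± 0.19, adjusted p = 0.0853, blocked 0.00636, with -0.78 on the third pair). IL1B, a caspase-1 substrate like IL18, read 140, 89.9 and 20.4 against 162, 96.3 and 19, with overlapping groups (0.14 ± 0.28, adjusted p = 0.903). IL1A, which signals through the same receptor, was dim, at 82.1, 53.4 and 13.1 against 85.6, 55.3 and 19.3.

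Among the 6 receptors, 1 rose in DU145-DR, and in 22Rv1-DR 1 rose and 2 fell. IL13RA2, a receptor for interleukin 13 with a short cytoplasmic tail that is often described as a decoy, read 19.7, 15.6 and 16.4 in 22Rv1 and 820, 744 and 388 in 22Rv1-DR. All 3 parental values fell below their array's 25th percentile, and the resistant arrays were far above them. The rise of 4.57 ± 0.32 (adjusted p = 0.00014, with 3.64 on the third pair) is therefore possibly a lower bound, and it passed under all 20 alternatives tried. IL13RA2 passed the low-value filter through 22Rv1-DR only, so it had to differ between groups and its p-value is no separate support. In DU145 the values were 33.6, 29.7 and 21.4, and in DU145-DR 111, 42.5 and 164. These were higher on each resistant array, with a change of 0.86 ± 0.32 that did not pass without the block (adjusted p = 0.145, blocked 0.039) and 2.27 on the third pair.

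IL1R1, the signalling receptor for interleukin 1, read 204, 271 and 254 in 22Rv1 and 21.3, 34.1 and 37 in 22Rv1-DR, lower on every resistant array. It fell by 2.54 ± 0.32 (adjusted p = 0.00236, with -2.35 on the third pair) and passed under all 20 alternatives. A second, dim IL1R1 probe set read 20.8 and 16.6 in 22Rv1 and 22.6 and 15.9 in 22Rv1-DR, near the floor in both. In DU145 the brighter set gave 274, 443 and 265 against 304, 179 and 141, with overlapping groups (-0.55 ± 0.32, adjusted p = 0.367).

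CXCR4, the receptor of CXCL12, moved in opposite directions in the 2 lines on the smaller array type. In DU145 it read 67.6 and 81 and in DU145-DR 350 and 468, a rise of 2.22 ± 0.21 (adjusted p = 0.0004). In 22Rv1 it read 93.7 and 79.3 and in 22Rv1-DR 21.9 and 20.8, a fall of 1.45 ± 0.21 (adjusted p = 0.00441). On the third arrays it read 826 in DU145 and 375 in DU145-DR, a difference of -1.11 against the rise, and 45.6 and 12.2 in 22Rv1 and 22Rv1-DR, a difference of -1.13 in the direction of the fall. Neither call passed in the 12-array fit (1.11 with adjusted p = 0.15, and -1.34 with 0.181). The other CXCR4 probe sets gave smaller changes in DU145-DR, 0.72 ± 0.18 (adjusted p = 0.0438) and 0.57 ± 0.33 (0.387), with -1.70 and -1.94 on the third pair. In 22Rv1-DR they gave -0.41 (0.346) and -0.34 (0.861). The 22Rv1 call was also lost with the mean of the probe sets (-0.74, adjusted p = 0.0666), without 22Rv1 replicate 1 (0.0616) and without 22Rv1-DR replicate 2 (0.0507).

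**Figure D2:**
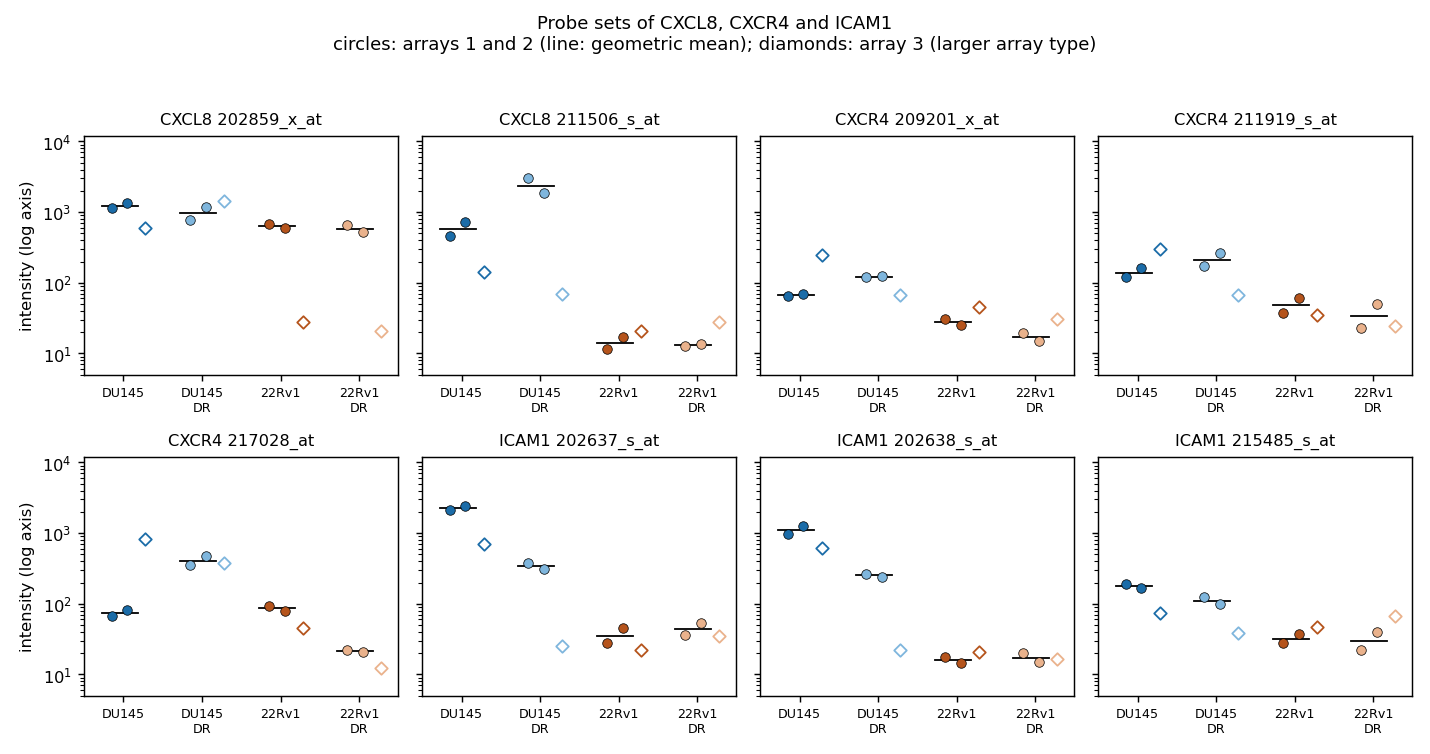
Intensity (log scale) on each array for the probe sets of CXCL8 (2), CXCR4 (3) and ICAM1 (3), with circles for replicates 1 and 2, a line at their geometric mean and diamonds for the third arrays. The CXCL8 probe sets read 3061 and 781 on DU145-DR array 1, and for all 3 CXCR4 probe sets the DU145 diamond (826, 251 and 300) lies above the DU145-DR diamond (375, 66.3 and 66.3) while the circles lie the other way round.

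The other receptors did not pass in either line without the block. IL6ST, or gp130, the shared signalling chain of IL6, IL11 and LIF, was bright by the probe set used, at 3929, 5518 and 4673 in DU145 and 6985, 5997 and 5955 in DU145-DR. Its changes were 0.47 ± 0.22 (adjusted p = 0.23) in DU145-DR and 0.50 ± 0.22 (0.307) in 22Rv1-DR, with 0.35 and -0.20 on the third pairs. Other IL6ST probe sets were dimmer, as low as 14.4 and 13.5 on the smaller 22Rv1 arrays. Those tested gave 0.39 to 0.90 in DU145-DR and -0.10 to 0.44 in 22Rv1-DR and did not pass. IL4R, the interleukin 4 receptor chain, read 468, 508 and 495 in DU145 and 1053, 750 and 605 in DU145-DR, higher on each resistant array (0.84 ± 0.24, adjusted p = 0.0634, blocked 0.0129). IL13RA1, which pairs with IL4R to signal, read 160, 138 and 290 in 22Rv1 and 217, 198 and 375 in 22Rv1-DR (0.44 ± 0.21, adjusted p = 0.363, blocked 0.0213, with 0.35 on the third pair).

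Of the 8 NF-kappaB subunits and inhibitors, 1 fell and 7 did not pass in DU145-DR, and 0 of 8 passed in 22Rv1-DR by limma's test (2 at an unadjusted p under 0.05). With the block, 3 subunits rose in DU145-DR and REL rose in 22Rv1-DR, where 35.5% and 22.1% of all genes passed. TNFAIP3, or A20, the ubiquitin-editing enzyme that shuts NF-kappaB signalling down and is itself a target of it, read 1090, 1287 and 750 in DU145 and 523, 422 and 199 in DU145-DR. It was lower on every resistant array and fell by 1.31 ± 0.30 (adjusted p = 0.0271, with -1.83 on the third pair). A second TNFAIP3 probe set gave -1.25 ± 0.25 (adjusted p = 0.0182). The call of the first was lost with a pseudocount of 1 (adjusted p = 0.0582), with only the 4 DU145 arrays (0.0558), without DU145 replicate 1 (0.0933) or 2 (0.142), without DU145-DR replicate 2 (0.0557) and without either 22Rv1-DR array (0.0528 each).

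Of the subunits, RELA, RELB and NFKB1 passed in DU145-DR with the block but not in the 8-array fit without it. RELA, the p65 subunit, read 849, 809 and 588 in DU145 and 1261, 1038 and 982 in DU145-DR (0.46 ± 0.18, adjusted p = 0.168, blocked 0.0184, with 0.72 on the third pair). RELB, the subunit of the alternative pathway, read 265, 199 and 135 against 377, 345 and 362 (0.61 ± 0.21, adjusted p = 0.108, blocked 0.0169, with 1.32 on the third pair). NFKB1, the precursor of p50, read 474, 488 and 396 against 843, 662 and 455 (0.62 ± 0.20, adjusted p = 0.0928, blocked 0.0161). On the smaller arrays the groups did not overlap for these 3, as was so for 42% of all genes tested in DU145. The second RELA probe set gave 0.25 ± 0.18 (adjusted p = 0.519).

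NFKB2, the precursor of the partner of RELB, read 145, 125 and 72 against 141, 126 and 115, with overlapping groups and a change of -0.01 on the smaller arrays. REL read 343, 322 and 111 against 375, 365 and 229 in DU145-DR (0.15 ± 0.17), and 82.1, 85 and 151 against 133, 124 and 109 in 22Rv1-DR, where the change of 0.53 ± 0.17 did not pass without the block over the 8 arrays (adjusted p = 0.139, blocked 0.014) and the third pair gave -0.42. NFKBIA, the main IkappaB and a rapid target of NF-kappaB, read 3281, 3848 and 1978 against 3902, 7591 and 1783 in DU145-DR (0.61 ± 0.30, adjusted p = 0.254, with -0.15 on the third pair). NFKBIE, another IkappaB, gave 0.26 ± 0.23 (adjusted p = 0.614).

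Of the 5 adhesion, acute phase and other induced genes tested, 1 rose, 3 fell and 1 did not pass in DU145-DR. LCN2, or lipocalin 2, which binds bacterial siderophores, read 898, 891 and 182 in DU145 and 110, 106 and 25.8 in DU145-DR. Both smaller resistant arrays lay far below both parental ones, and LCN2 fell by 2.88 ± 0.18 (adjusted p = 5.14e-05, with -2.25 on the third pair). ICAM1, the adhesion molecule that binds leukocyte integrins, read 2106, 2419 and 704 in DU145 and 383, 313 and 25.6 in DU145-DR. It fell by 2.65 ± 0.24 (adjusted p = 0.000376, with -4.11 on the third pair). Its other probe sets gave -2.05 ± 0.21 (adjusted p = 0.000848) and -0.63 ± 0.24 (0.164). The LCN2 and ICAM1 calls passed under all 20 alternatives tried.

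TNFAIP2, a TNF-induced gene, read 1911, 2106 and 1269 in DU145 and 588, 1060 and 383 in DU145-DR, lower on every resistant array, and fell by 1.33 ± 0.27 (adjusted p = 0.0167, with -1.69 on the third pair). That call was lost with only the 4 DU145 arrays (adjusted p = 0.0947) and without DU145 replicate 1 (0.0747) or 2 (0.0947), and a second, dimmer probe set gave -0.65 ± 0.19 (0.074). PTX3, pentraxin 3, a soluble pattern recognition protein, moved the other way, from 92.4, 127 and 13.8 to 592, 4096 and 186. Every resistant array was higher, but replicates 1 and 2 differed widely. PTX3 rose by 3.67 ± 0.70 (adjusted p = 0.0131, with 2.76 on the third pair), and the call was lost with only the 4 DU145 arrays (0.0607) and without DU145 replicate 1 (0.0947) or 2 (0.0679). CD83, a marker of mature dendritic cells, read 449, 495 and 89.9 against 383, 449 and 212 (-0.18 ± 0.19, adjusted p = 0.701, with 1.11 on the third pair). VCAM1 and PTGS2 (cyclooxygenase 2) were dim in DU145 and DU145-DR, with VCAM1 at 59.3 and 55.3 against 54.2 and 58.1.

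**Figure D3:**
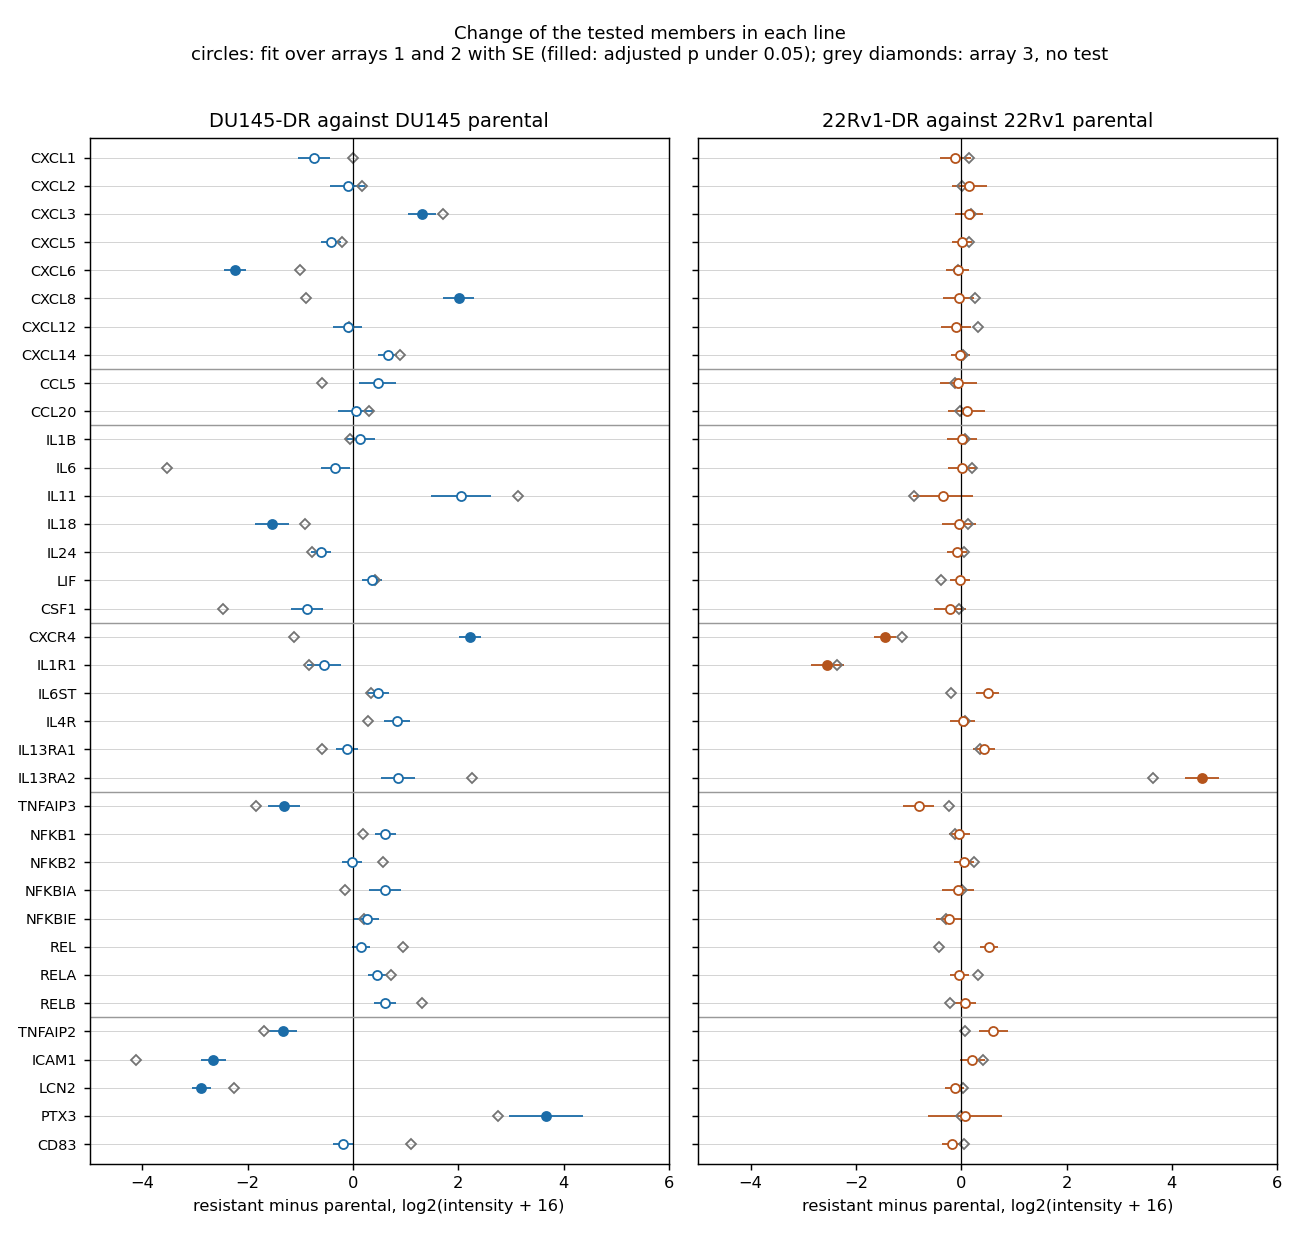
Change of log2(intensity + 16), resistant minus parental, for the tested members in DU145-DR and in 22Rv1-DR. Bars give the SE from the fit, whose spread per gene was pooled over the 4 groups. Filled circles mark an adjusted p under 0.05, and grey diamonds mark the third pair. In DU145-DR the points run from -2.88 (LCN2) to 3.67 (PTX3), while in 22Rv1-DR most lie near 0, apart from IL13RA2 at 4.57, IL1R1 at -2.54 and CXCR4 at -1.45.

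On the third pair of DU145, 6 of 43 genes were higher by at least 1 on the log2 scale in the resistant cells (14%, against 6.59% of all 19740 genes) and 8 were lower by as much (18.6%, against 7.02%). The higher ones were IL11, PTX3, IL13RA2, CXCL3, RELB and CD83. The lower ones were ICAM1, IL6, CSF1, LCN2, TNFAIP3, TNFAIP2, CXCR4 and CXCL6. The medians were -0.04 for the 43 and -0.03 for all genes.

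In 22Rv1-DR cells 3 of the 36 genes changed, 1 up and 2 down (8.33%), where 5.56% of all genes did. With the block 5 passed (13.9%), where 22.1% of all genes did. The remaining 33 genes gave changes between -0.81 (TNFAIP3) and 0.61 (TNFAIP2). Only 9 of the 42 genes measured lay above the array median on both smaller arrays in 22Rv1, and 9 in 22Rv1-DR (21.4% in each, against 55.5% and 55.6% of all genes). In DU145 27 did (64.3%, all genes 54.3%), and in DU145-DR 25 (59.5%, all genes 54.2%). Genes at the floor in 22Rv1 read near or under the 25th percentile there (20.4 and 19.6), which leaves little range for a fall. Such were IL6 (14.3 and 20.8), PTX3 (13.2 and 13.6) and LCN2 (20.5 and 22.5). CXCL8 was at the floor by the probe set used (11.5 and 17.1) but not by its second one. That one read 690 and 592 in 22Rv1 and 657 and 523 in 22Rv1-DR, yet 27.7 and 21.1 on the third arrays. On the third pair of 22Rv1 1 of 43 genes, IL13RA2, was higher by at least 1 (2.33%, against 2.09% of all genes), and 3, PTGS2, IL1R1 and CXCR4, were lower by as much (6.98%, against 3.2%).

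The difference between the lines, the 22Rv1 change minus the DU145 change, passed for 8 of the 36 genes (22.2%, all genes 8%), 5 above 0 and 3 below. With the block it passed for 21 (58.3%, all genes 31.7%). IL13RA2 had a difference of 3.71 ± 0.46 (adjusted p = 0.00217), a larger rise in 22Rv1-DR. Its DU145 values of 33.6 and 29.7 lay under the 5th percentile of those arrays (38.6 and 35.8), so its DU145-DR change may be understated and the difference overstated. The third pairs gave 2.27 in DU145-DR and 3.64 in 22Rv1-DR. ICAM1 (2.86 ± 0.34, adjusted p = 0.00183), LCN2 (2.75 ± 0.25, 0.000465), CXCL6 (2.17 ± 0.30, 0.00399) and TNFAIP2 (1.93 ± 0.38, 0.0186) fell in DU145-DR and did not pass in 22Rv1-DR. On the smaller 22Rv1 parental arrays CXCL6 read 9.38 and 10.8, LCN2 20.5 and 22.5 and ICAM1 27.9 and 45.3. That left little range for a fall like that in DU145-DR. The differences of CXCL6, LCN2 and ICAM1 therefore mostly restate the DU145-DR fall and cannot show whether the lines respond differently. CXCR4 (-3.68 ± 0.29, adjusted p = 0.000282), up in DU145-DR and down in 22Rv1-DR, and CXCL8 (-2.06 ± 0.41, 0.02), up in DU145-DR, carry the limits on probe set and array type given above. IL1R1 (-1.99 ± 0.46, 0.0335) fell in 22Rv1-DR. The differences of CXCL6, CXCR4, IL13RA2, ICAM1 and LCN2 passed without each of the 8 arrays in turn, and those of CXCL8, IL1R1 and TNFAIP2 did not. CXCL8 (adjusted p = 0.0553 to 0.0873) and IL1R1 (0.0719 to 0.131) lost theirs without DU145 replicate 1 and without each array of 22Rv1 and 22Rv1-DR, and TNFAIP2 (0.0538 to 0.0823) without each array of DU145, 22Rv1 and 22Rv1-DR. The CXCL8 difference also did not pass in the 12-array fit (-0.99, adjusted p = 0.395) or with the mean of its probe sets (-0.91, 0.0738), and the IL1R1 difference did not pass with a pseudocount of 64 (-1.24, 0.0936), with the mean of its probe sets (-0.99, 0.0613) or without the filter (-1.99, 0.0505). For 13 further genes the difference passed with the block but not in the 8-array fit without it. Of these, CXCL3 (-1.16 ± 0.36, adjusted p = 0.0949, blocked 0.00658), CXCL14 (-0.69, blocked 0.012), IL11 (-2.39, blocked 0.0381), IL18 (1.49, adjusted p = 0.0887, blocked 0.0111) and PTX3 (-3.60 ± 0.99, adjusted p = 0.0635, blocked 0.0189) also passed in the 12-array fit. The others were CXCL1 (0.63, blocked adjusted p = 0.0448), IL24 (0.52, 0.0298), IL4R (-0.82, 0.0428), IL13RA1 (0.55, 0.0241), CSF1 (0.66, 0.0241), NFKB1 (-0.66, 0.0403), NFKBIE (-0.50, 0.0388) and RELA (-0.50, 0.0428).

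The third arrays, all 4 of which had a 25th percentile between 16.8 and 17.8, set the parental lines side by side, with 1 array each and no test. In 22Rv1, 20 of 43 genes were lower than in DU145 by at least 1 on the log2 scale (46.5%, against 9.17% of all genes) and 1 was higher (2.33%, against 10.3%). The median difference was -0.68, against -0.01 over all genes. TNFAIP2 (-4.59), IL6 (-4.54), CXCL2 (-4.49), ICAM1 (-4.23) and TNFAIP3 (-3.87) were furthest below DU145. The ligands IL18 (-3.60), CSF1 (-2.81), LIF (-2.72), IL11 (-2.40) and IL24 (-2.36) were also lower in 22Rv1. The NF-kappaB subunits differed less: RELB by -1.22, RELA by -0.68, NFKB1 by -0.50, NFKB2 by -0.06 and REL by 0.40. IL1R1 was at nearly the same level in both lines (265 in DU145, 254 in 22Rv1), and PTGS2, at 11.5 in DU145 and 437 in 22Rv1, was the one gene at least 1 higher.

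**Figure D4:**
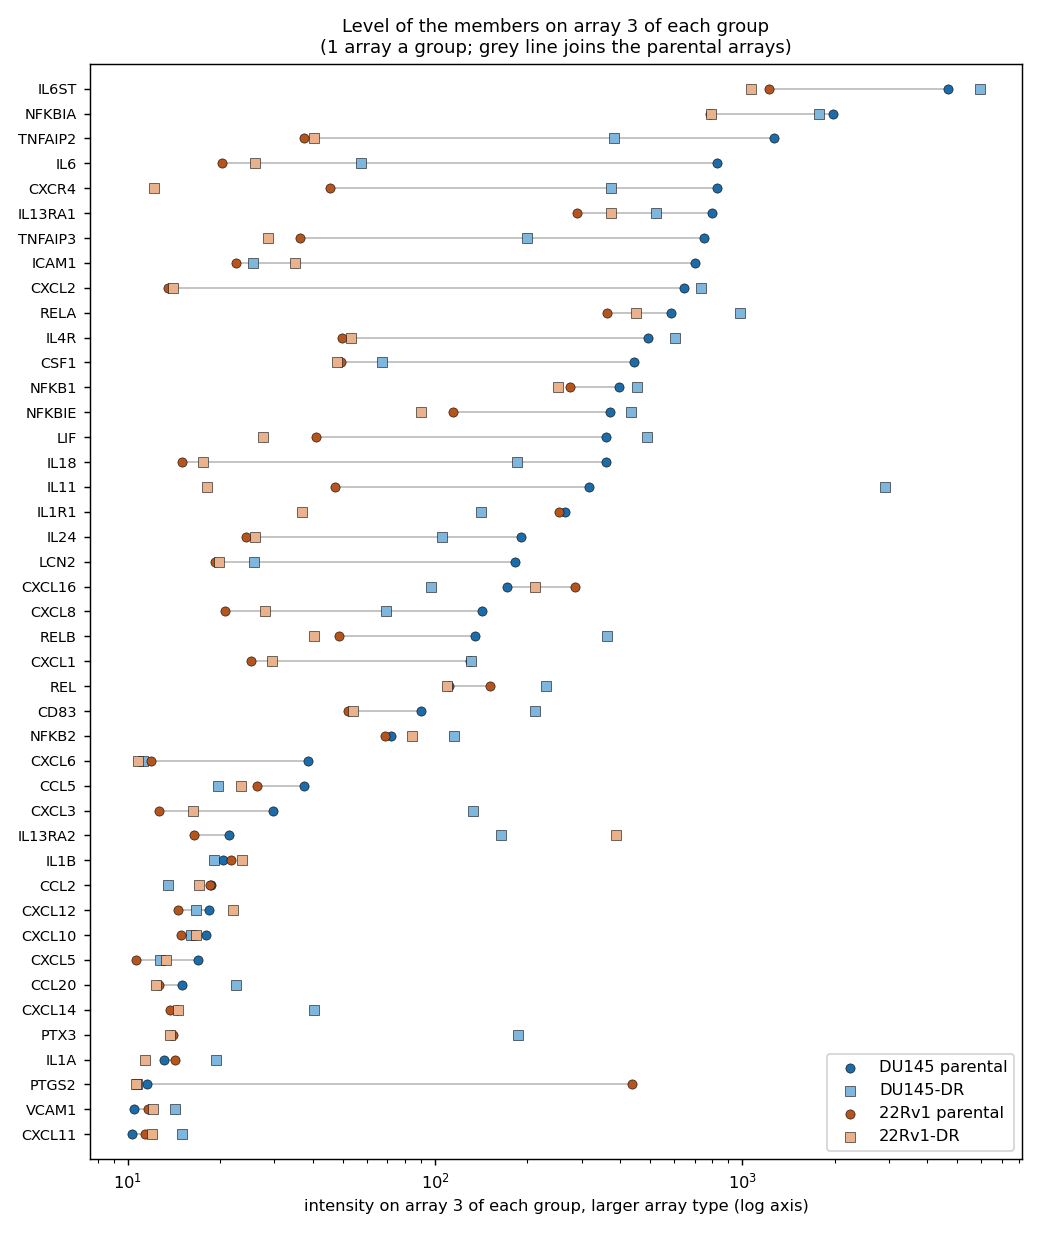
Intensity (log scale) of each member on the third array of each of the 4 groups, 1 array per group and so no error bars, with circles for parental and squares for resistant cells. The 22Rv1 and 22Rv1-DR points of TNFAIP2 (37.5 and 40.5), ICAM1 (22.5 and 35) and IL6 (20.3 and 26) lie far below the DU145 points (1269, 704 and 826), while those of IL1R1 in DU145 and 22Rv1 (265 and 254) nearly coincide.

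The rest of the pathway was described from other lists of genes. Beside the counts below, 11% of all genes tested changed in DU145-DR and 5.56% in 22Rv1-DR. Among 28 genes tested that act upstream of NF-kappaB (receptors, adaptors and kinases), 2 rose, 2 fell and 24 did not pass in DU145-DR. TAB2, an adaptor of the kinase TAK1, rose by 0.90 ± 0.20 (adjusted p = 0.0249), and BCL10, an adaptor downstream of antigen receptors, rose by 0.87 ± 0.23 (0.049). TNFRSF1B, the second TNF receptor, fell by 0.98 ± 0.26 (adjusted p = 0.0436), and LTBR, the lymphotoxin beta receptor, fell by 0.90 ± 0.21 (0.0305). In 22Rv1-DR 2 rose and 26 did not pass: TRAF5 (2.32 ± 0.25, adjusted p = 0.00109, with 0.58 on the third pair) and TRAF3 (0.87 ± 0.18, 0.0256), both adaptors of TNF receptor family members. Of 6 further inhibitors and modifiers, 0 passed limma's test in DU145-DR (0 at an unadjusted p under 0.05), and PELI1, a ubiquitin ligase of the interleukin 1 receptor pathway, rose in 22Rv1-DR (0.96 ± 0.22, 0.0413).

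Of 25 other NF-kappaB targets tested, 8 fell, 1 rose and 16 did not pass in DU145-DR, with a median of -0.07 and of -0.42 on the third pair. Over all genes tested, 11% changed in DU145-DR and 5.56% in 22Rv1-DR. KYNU, an enzyme of tryptophan breakdown, fell by 4.22 ± 0.17 (adjusted p = 7.74e-06, with -6.40 on the third pair), and F3, tissue factor, fell by 3.48 ± 0.28 (0.000249). The apoptosis inhibitors BCL2A1 (-2.33 ± 0.58, adjusted p = 0.0353) and BCL2L1 (-1.54 ± 0.25, 0.00624) fell too. The 1 that rose was BIRC2, a ubiquitin ligase that restrains cell death (1.20 ± 0.31, adjusted p = 0.0423), named after its value was seen. F3 also fell in 22Rv1-DR (-3.25 ± 0.28, adjusted p = 0.000345, with -5.46 on the third pair), as did IER3 (-1.11 ± 0.25, 0.0385), while complement C3 rose (0.86 ± 0.18, 0.0302) and 22 did not pass.

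Of 22 genes of gp130 and JAK-STAT signalling, 1 rose, 1 fell and 20 did not pass in DU145-DR. The shares over all genes tested were again 11% in DU145-DR and 5.56% in 22Rv1-DR. IL11RA, the receptor chain specific for IL11, rose by 1.11 ± 0.24 (adjusted p = 0.0224) with -0.02 on the third pair, and SOCS2, a suppressor of cytokine signalling, fell by 1.21 ± 0.32 (0.0452). In 22Rv1-DR the kinase JAK1 rose by 1.38 ± 0.21 (adjusted p = 0.00623), STAT5A rose by 1.36 ± 0.25 (0.0155), and the repressor BCL6 fell by 1.88 ± 0.23 (0.00173). Of 11 partners of the IL1, IL4 and IL13 receptors, IL18R1, a chain of the interleukin 18 receptor, fell in DU145-DR (-0.88 ± 0.20, adjusted p = 0.028) and 10 did not pass. Of 13 chemokine receptors measured beside CXCR4, 5 were bright enough to test, and 0 passed limma's test in either line (1 in DU145-DR and 0 in 22Rv1-DR at an unadjusted p under 0.05). With the replicate block, 35.5% of all genes tested passed in DU145-DR and 22.1% in 22Rv1-DR. Of the 28 upstream genes, 5 then rose and 4 fell in DU145-DR and 7 rose in 22Rv1-DR. Of the 6 further inhibitors and modifiers, 2 rose in DU145-DR. Of the gp130 and JAK-STAT genes, 3 then rose and 4 fell in DU145-DR, and 9 rose and 2 fell in 22Rv1-DR. Of the receptor partners, 1 rose and 2 fell in DU145-DR and 1 rose in 22Rv1-DR, and of the epithelial and prostate markers 1 rose and 5 fell in 22Rv1-DR. With each of the 8 arrays left out in turn, KYNU and F3 in DU145-DR, F3, TRAF5 and BCL6 in 22Rv1-DR and BCL2L1 in DU145-DR passed every time. The other genes named from the pathway lists, which leave out the epithelial and prostate markers, lost their call in 2 to 7 of the 8 fits.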

How the data were processed

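Gene expression was measured on 12 Affymetrix arrays of 2 types. The values deposited by the authors are linear probe-set intensity; per the submitters' processing notes MAS5 and RMA were used, with roles, versions and background correction not given in the sources used here. Probe sets were named from the supplied annotation, and those with 1 gene symbol were kept. Each gene was read by its brightest probe set not marked as cross-hybridising, or by a marked one where it had no other. Genes whose mean stayed at or below the 40th percentile (log2 6.49, intensity 74.0) in all 4 groups were not tested. The 8 arrays of the smaller type, replicates 1 and 2, were fitted on log2(intensity + 16) with limma 3.58.1 in R 4.3.3 (4 group means, no block, 4 residual and 4.474 prior degrees of freedom), with two-sided Benjamini-Hochberg adjusted p-values. The fit was tested on simulated data with independent noise on each array, so that test does not cover the pairing of replicates described next.

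Replicate numbers were checked for pairing: deviations of replicate 1 correlated across genes at 0.693 between DU145 and DU145-DR and at 0.792 between 22Rv1 and 22Rv1-DR, against 0.0688 to 0.123 across lines. The numbers were therefore taken to pair arrays within a line, and a fit with a replicate block (2 residual degrees of freedom) is given for members whose call it changes and for lists whose count it moves by over 1.5 times. The other alternatives changed the scaling, pseudocount, filter, probe-set rule, variance model or arrays used. Members past the threshold in any comparison are given on every array, the others by value or range, and up to 4 genes of each other list past the threshold. The members and lists were chosen with earlier results of these data known. Promoter sequences are from RefSeq (GRCh38.p14).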

Additional observations from a re-analysis of the deposited data

Results flagged for a closer look

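The following genes were singled out because their resistant minus parental changes differed between the lines by limma's test of the difference itself (22Rv1 change minus DU145 change). The difference was 3.71 for IL13RA2, 2.86 for ICAM1, 2.75 for LCN2, 2.17 for CXCL6 and 1.93 for TNFAIP2. It was -3.68 for CXCR4, -2.06 for CXCL8 and -1.99 for IL1R1. On the smaller 22Rv1 parental arrays, whose 25th percentiles were 20.4 and 19.6, LCN2 (20.5 and 22.5), CXCL6 (9.38 and 10.8) and CXCL8 (11.5 and 17.1) read near or under that level, and ICAM1 read 27.9 and 45.3. The CXCL8 values are those of the probe set used, and its second probe set read 690 and 592 on these arrays. IL13RA2 read 33.6 and 29.7 on the smaller DU145 parental arrays, under their 5th percentiles of 38.6 and 35.8. The part of the floor in these differences was not tested.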

How the results depend on the processing

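Across 2085 pairs of a tested value and an alternative, 1966 stayed on their side of the threshold, 45 calls were lost, 74 were gained and 0 called values changed sign. Of the 36 genes, 10 passed in DU145-DR, against 22 with the replicate block, 5 with only the 4 arrays of the line and 16 with all 12 arrays and array type as a block; leaving out 1 array gave 5 to 17. In 22Rv1-DR 3 passed, against 5 with the replicate block and 5 with only the 4 arrays, and 2 to 3 with 1 array left out. The difference passed for 8, against 21 with the replicate block and 5 to 12 with 1 array left out. Over all genes the 1069 calls in DU145-DR became 3445 with the replicate block, 2089 with 12 arrays, 292 with 4 arrays, 1628 after quantile normalization and 489 to 1523 with 1 array left out. The 540 in 22Rv1-DR became 2147 with the replicate block, 1266 with 4 arrays and 214 to 866 with 1 array left out. The 777 for the difference became 3080, 1335 with 12 arrays, 1248 after quantile normalization and 314 to 1280. Where an array was left out, its group kept 1 array, assumed to vary like the others. For the 10 genes called in DU145-DR and the 3 in 22Rv1-DR, the groups did not overlap. Leaving out 1 array could therefore not change their sign, and it left changes of the other line as they were. With every probe set on its own, a gene counted by the set of lowest p-value, which left out the second CXCL8 set (-0.35 in DU145-DR). The third pair alone was not an alternative. The causes were not tested. The number of arrays limits precision, and genes near the floor give bounds.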

Other observations

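A few of these genes read very differently on the third arrays and on the other arrays of the same group. PTGS2, cyclooxygenase 2, read 437 on the third 22Rv1 array and 10.6 on the third 22Rv1-DR array, a difference of -4.09, while the smaller 22Rv1 arrays read 21.1 and 17.5. A second PTGS2 probe set read 47.5 and 9.38 on the same arrays. CCL20 read 1031 and 1418 on the smaller DU145 arrays and 15 on the third, and IL6 read 750 and 488 on the smaller DU145-DR arrays and 57.3 on the third. The array types were normalised apart, and whether the cultures, the array type or the processing differed was not tested.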
